A study of Mus musculus with 26 samples.

Results

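The Sox genes *Sox1*, *Sox2*, *Sox3*, *Sox4*, *Sox11*, *Sox12*, *Sox13*, *Sox15* and *Sox21* were followed in mouse pluripotent cells, 9 genes taken by name as family members that are used in early embryonic cells. Of these, 8 had an RNA level, among 15646 genes with a level in 3 cell states, and 7 had at least 1 interaction of their promoter in 3 interaction lists that together held 19022 baited fragments. The RNA level and interactions of *Sox1* were not analysed here, and *Sox11* had an RNA level and a bait but no listed interaction.

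The study compared naive embryonic stem cells with primed epiblast stem cells and asked what the pluripotency factor NANOG does to promoter interactions. WT ESCs were the E14Tg2a line (129P2/OlaHsd), and *Nanog*-/- ESCs were RCNβH-B(t), a line derived from E14Tg2a, at passages 20 to 30 and expanded with 25 µg/ml hygromycin. Both ESC lines were grown in serum medium (15% FBS) with 1000 U/ml LIF, whereas the EpiSCs, derived from 129S2 embryos, were grown in N2B27 with 20 ng/ml Activin A and 12 ng/ml bFGF. State, strain and medium therefore cannot be told apart between EpiSCs and ESCs, each state is 1 line, and the strain tag of the samples reads C57BL/6, which differs from the strains named for the lines. RNA-seq covered 3 WT ESC, 3 *Nanog*-/- ESC and 4 EpiSC samples, reduced by the authors to 1 median RPKM (reads scaled to gene length and library size) per gene and state. Promoter Capture Hi-C (PCHi-C), which pulls down the ligation partners of promoter fragments ("baits"), covered 5, 5 and 2 sequencing samples in the same order and was combined into 1 list per state. No value per sample was therefore used, no error can be attached to an RPKM, and no difference below has a test.

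SOX proteins bind DNA through a shared HMG box, and they usually act beside a partner factor. SOX2, of the SoxB1 group with SOX1 and SOX3, pairs with OCT4 (*Pou5f1*) on composite sites of many pluripotency genes and is also a regulator of neural progenitors. SOX21 belongs to the SoxB2 group that can oppose SoxB1 activity in the neural tube, SOX4, SOX11 and SOX12 form the SoxC group of progenitor and neuronal regulators, SOX13 is a SoxD protein, and SOX15 is the single SoxG member and is expressed in ESCs.

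Sequences at the *Sox2*, *Sox15* and *Sox4* loci are shown for reference, and no RNA level or interaction below was derived from them. The first is the HindIII fragment that gave the strongest *Sox2* interaction in both WT ESCs and EpiSCs (chr3:35100113-35100359, plus strand, 247 bases, intergenic), and the second gave the strongest *Sox4* interaction in EpiSCs (chr13:29826416-29826618, plus strand, 203 bases, in an intron of *Cdkal1*). Capitals mark matches to ACAAAG or ACAATG, the short core bound by SOX proteins, on either strand.
Sox2 partner fragment: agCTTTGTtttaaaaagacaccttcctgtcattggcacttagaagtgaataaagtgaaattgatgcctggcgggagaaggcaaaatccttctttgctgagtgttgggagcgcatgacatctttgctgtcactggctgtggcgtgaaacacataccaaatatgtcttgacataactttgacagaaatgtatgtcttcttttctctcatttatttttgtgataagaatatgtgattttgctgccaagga
Sox4 partner fragment: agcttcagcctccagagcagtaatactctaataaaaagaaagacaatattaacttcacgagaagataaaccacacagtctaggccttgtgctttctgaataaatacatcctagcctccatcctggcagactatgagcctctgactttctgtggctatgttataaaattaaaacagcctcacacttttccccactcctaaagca

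The *Sox2* fragment held 1 match to ACAAAG, which begins at base 3 and shares bases with the HindIII end, and none to ACAATG. The *Sox4* fragment held neither. Of 24781 HindIII fragments of 200 to 300 bases in GRCm38, 22.7% held ACAAAG and 16.5% held ACAATG. The composite motif TTGTNATGC, a SOX site beside an OCT site, was in neither fragment, and 0.755% of those fragments held it. A match is a run of letters and not a measured binding site.

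The 250 bases before the transcription start of *Sox2* (chr3:34649745-34649994, plus strand) and of *Sox15* (chr11:69654787-69655036, plus strand) are taken from RefSeq (GRCm38.p6). The GENCODE vM21 annotation, used below for genes, starts *Sox2* at chr3:34650405 and *Sox15* at chr11:69655314, farther downstream. These 2 genes had the largest falls in RNA among the members in EpiSCs.
Sox2 promoter: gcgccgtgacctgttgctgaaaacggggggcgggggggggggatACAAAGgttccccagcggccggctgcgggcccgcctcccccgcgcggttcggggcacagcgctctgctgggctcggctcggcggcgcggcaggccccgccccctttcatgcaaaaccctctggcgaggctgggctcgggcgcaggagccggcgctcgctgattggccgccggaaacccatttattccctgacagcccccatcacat
Sox15 promoter: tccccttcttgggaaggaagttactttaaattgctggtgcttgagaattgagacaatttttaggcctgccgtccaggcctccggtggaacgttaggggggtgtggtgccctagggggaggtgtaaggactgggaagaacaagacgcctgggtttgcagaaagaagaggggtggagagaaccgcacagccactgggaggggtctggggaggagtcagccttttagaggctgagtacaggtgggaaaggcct

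The *Sox2* promoter is GC-rich, at 72.0% G or C with 27 CG pairs, and the *Sox15* promoter has 55.6% and 5, where the median over 32851 promoters was 52.4%. A RefSeq promoter was searched for 8 members, *Sox1* included and *Sox3* not, and ACAAAG was present only in that of *Sox2*, in 1 copy, and neither ACAATG nor TTGTNATGC was in any. Of all promoters, 16.5% held ACAAAG, 10.7% held ACAATG and 0.648% held TTGTNATGC in the same window.

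In EpiSCs the members did not move together. For differences, EpiSC RPKM was divided by 1.885, the median EpiSC/WT ESC ratio of 9077 genes at 1 RPKM or more in both states. EpiSC levels are on this scale unless given as deposited. The limit of 1 RPKM in at least 1 state, however, was applied to EpiSC values as deposited. Differences are of log2(RPKM + 1), which understates the change of low genes, and a gene was called 2-fold higher or lower at a difference of at least 1. All 8 members reached 1 RPKM in at least 1 state, and 3 were 2-fold higher (*Sox3*, *Sox4* and *Sox21*) and 2 were 2-fold lower (*Sox2* and *Sox15*). Over all 11066 genes at 1 RPKM or more in at least 1 state, 14.8% were higher and 13.7% were lower by the same rule, and the median difference was 0.03 against 0.72 for the members. Without the scaling, 5 members were higher and 2 lower, since *Sox11* and *Sox12* also passed, and 42.5% of all genes were then higher and 8.17% lower.

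*Sox2*, the SoxB1 partner of OCT4, had a median of 397 RPKM in WT ESCs, 364 RPKM in *Nanog*-/- ESCs and 136.9 RPKM in EpiSCs (72.6 RPKM scaled). It was the highest of the members in each of the 3 states, and the lower level in EpiSCs corresponds to a difference of −2.43 on the log2 scale (−1.53 unscaled). *Sox3*, the SoxB1 gene closest to *Sox2*, went the other way. Its medians were 3.86 RPKM in WT ESCs, 6.62 RPKM in *Nanog*-/- ESCs and 31.0 RPKM in EpiSCs after scaling. This is the highest difference among the members, 8.05-fold in scaled RPKM and 2.72 in log2, and it brought *Sox3* from the 49.7th to the 81.0th percentile of all genes. The RPKM of *Sox2* was 2.34 times that of *Sox3* in EpiSCs after scaling and 103 times in WT ESCs.

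*Sox15* showed the widest range of the members. Its median was 48.1 RPKM in WT ESCs, second to *Sox2*, 13.3 RPKM in *Nanog*-/- ESCs and 0.340 RPKM in EpiSCs (0.180 RPKM scaled). The EpiSC difference was −5.38 on the log2 scale, and the gene went from the 86.5th to the 27.6th percentile. *Sox21*, the SoxB2 gene, was low in both ESC lines, at 3.31 RPKM in WT and 2.77 RPKM in *Nanog*-/- cells, and had 9.67 RPKM in EpiSCs after scaling, a difference of 1.31.

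The SoxC genes were all higher in EpiSCs than in WT ESCs, but only *Sox4* passed the 2-fold rule. *Sox4* had 23.35 RPKM in WT ESCs, 56.1 RPKM in *Nanog*-/- ESCs and 67.1 RPKM in EpiSCs after scaling, a difference of 1.48. *Sox11* had 15.2, 13.6 and 30.4 RPKM in the same order and a difference of 0.96, just under the rule. *Sox12* had 33.9, 23.3 and 47.9 RPKM and a difference of 0.49. *Sox13*, the SoxD gene, was nearly level at 21.3, 28.9 and 19.0 RPKM, a difference of −0.15 that became 0.73 without the scaling.

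In WT ESCs the order of the levels was *Sox2*, *Sox15*, *Sox12*, *Sox4*, *Sox13*, *Sox11*, *Sox3* and *Sox21*. In EpiSCs it was *Sox2*, *Sox4*, *Sox12*, *Sox3*, *Sox11*, *Sox13*, *Sox21* and *Sox15*. Neighbours in these orders can lie close, as *Sox3* and *Sox11* do in EpiSCs at 31.0 and 30.4 RPKM, and whether they differ beyond the spread of the samples cannot be read from medians.

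**Figure D1:**
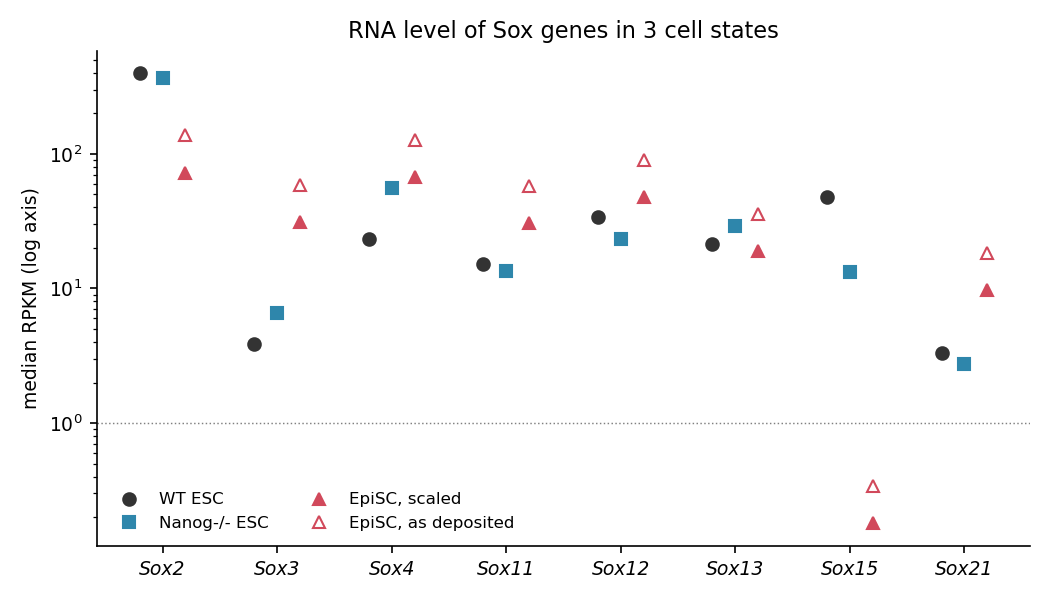
Median RPKM of the 8 Sox genes (log axis), 1 point per state. Black circles are WT ESCs, blue squares *Nanog*-/- ESCs, filled red triangles EpiSCs after scaling and open red triangles EpiSCs as deposited, and the dotted line marks 1 RPKM. *Sox15* in EpiSCs is the only point under that line.

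Fewer of these genes differed by 2-fold between *Nanog*-/- and WT ESCs, which are 1 line each and differ also in the hygromycin used in expansion. *Nanog* itself had 418 RPKM in WT ESCs, 22.3 RPKM in *Nanog*-/- ESCs and 361 RPKM in EpiSCs as deposited. Against WT ESCs, 1 of the 8 members was 2-fold higher in *Nanog*-/- ESCs (*Sox4*, difference 1.23) and 1 was 2-fold lower (*Sox15*, difference −1.78), where 2.39% and 1.92% of all genes were. *Sox15* and *Sox4* were thus past 2-fold in the same direction in both comparisons, which share the WT ESC values. *Sox2* differed by −0.13, and the remaining 5 members lay between −0.52 (*Sox12*) and 0.65 (*Sox3*).

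**Figure D2:**
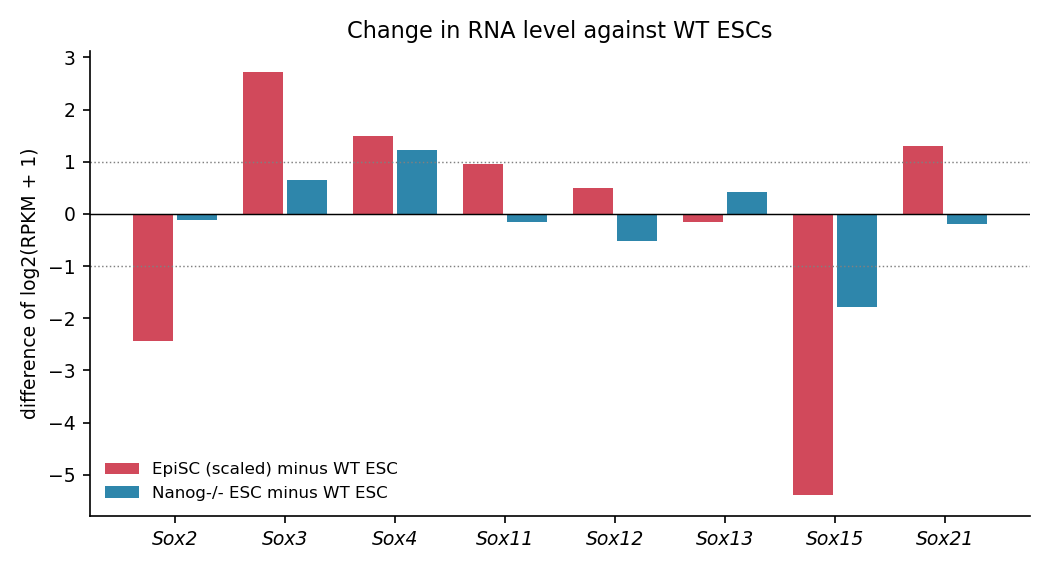
Difference of log2(RPKM + 1) against WT ESCs for the 8 Sox genes. Red bars are EpiSCs after scaling, blue bars are *Nanog*-/- ESCs, and dotted lines mark a 2-fold difference in either direction. *Sox15* lies below the lower line and *Sox4* above the upper line in both, and *Sox2* and *Sox3* are past a line only in EpiSCs.

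Other Sox genes were mostly low. Of 11 listed, 10 had a level and 7 reached 1 RPKM in a state, with EpiSC values as deposited. *Sox6* did so only before scaling, at 1.57 RPKM in EpiSCs as deposited and 0.833 RPKM scaled. *Sox9*, a SoxE gene, had 0.129 RPKM in WT ESCs, 0.660 RPKM in *Nanog*-/- ESCs and 16.6 RPKM in EpiSCs after scaling. *Sox17*, a SoxF gene of endoderm, had 0.237, 5.93 and 6.67 RPKM, and was 2-fold higher in both. *Sox7* and *Sox18*, also SoxF, were 2-fold higher in *Nanog*-/- ESCs alone, with *Sox7* at 0.127 RPKM in WT and 9.18 RPKM in *Nanog*-/- cells. By the count, 2 of the 7 were higher and 0 lower in EpiSCs, where 14.8% and 13.7% of all genes were. In *Nanog*-/- ESCs 3 were higher and 0 lower, where 2.39% and 1.92% were. *Sox6*, *Sox7*, *Sox8*, *Sox9*, *Sox10* and *Sox17* were under 1 RPKM in WT ESCs and entered the count through another state. With 1 added to each RPKM they could not be called lower, so the absence of lower genes is not a result. The higher counts are no result against the shares of all genes either. *Sox7*, *Sox9* and *Sox17* passed the limit only through states in which they were high.

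Of 9 partner and target genes of the OCT4-SOX2 pair, 8 had a level. In EpiSCs 1 was 2-fold higher (*Lefty1*, a NODAL inhibitor) and 4 were 2-fold lower (*Nanog*, *Fgf4*, *Utf1* and *Fbxo15*). Of all genes, 14.8% were higher and 13.7% lower. Without the scaling 2 were higher and 2 lower, since *Nanog* (−0.21) and *Utf1* (−0.76) no longer passed and *Pou3f1* (1.77) did. The shares of all genes were then 42.5% higher and 8.17% lower. *Fgf4*, a growth factor gene with a composite OCT-SOX enhancer, went from 151 RPKM in WT ESCs to 8.23 RPKM in EpiSCs, and *Fbxo15* from 257 to 6.24 RPKM. *Pou5f1* itself had 1159, 1129 and 754 RPKM in WT ESCs, *Nanog*-/- ESCs and EpiSCs, under 2-fold in either comparison. In *Nanog*-/- ESCs the single partner or target past 2-fold was *Nanog*, which was lower, as were 1.92% of all genes.

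Markers of the cell states and of other lineages moved alongside. The summed level of 5 naive markers was 586 RPKM in WT ESCs, 390 RPKM in *Nanog*-/- ESCs and 7.60 RPKM in EpiSCs, and in EpiSCs *Esrrb* and *Dppa3* were under 1 RPKM and *Nr0b1* was listed at 0. Those of 6 primed markers summed to 289, 256 and 474 RPKM in the same order, although only 2 of 6 (*Fgf5* and *Cer1*) were 2-fold higher in EpiSCs. Of all genes, 14.8% were. In *Nanog*-/- ESCs, 3 of the primed markers (*Fgf5*, *Lef1* and *Cer1*) and 2 of the naive markers (*Klf4* and *Dppa3*) were 2-fold lower. In both lists 0 were higher there, and of all genes 1.92% were lower and 2.39% higher.

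All 5 mesendoderm markers were 2-fold higher in EpiSCs, at 326 RPKM in sum against 8.32 RPKM in WT ESCs. Of all genes, 14.8% were 2-fold higher in EpiSCs and 2.39% in *Nanog*-/- ESCs. Of 5 primitive endoderm markers, *Sox7* and *Sox17* among them, all 5 were 2-fold higher in *Nanog*-/- ESCs and 3 (*Gata6*, *Sox17* and *Pdgfra*) in EpiSCs, and their sum was 3.13 RPKM in WT ESCs, 59.3 RPKM in *Nanog*-/- ESCs and 17.1 RPKM in EpiSCs. *Mixl1*, *Foxa2*, *Gsc*, *Gata6*, *Sox17*, *Sox7* and *Pdgfra* were under 1 RPKM in WT ESCs and passed the limit only through another state. They could not be called lower, so the counts of these 2 marker lists are no result against the shares of all genes. Of 6 neural markers, *Neurog2*, *Hes5* and *Zic1* were under 1 RPKM in every state. Among the other 3 neural markers, *Nes* was 2-fold higher in EpiSCs (11.8 RPKM in WT ESCs and 144 RPKM in EpiSCs), *Tubb3* was 2-fold lower (77.1 and 9.60 RPKM) and *Pax6* was under 2-fold (1.45 and 1.07 RPKM). In *Nanog*-/- ESCs, 1 mesendoderm marker (*T*) and 1 neural marker (*Tubb3*) were 2-fold lower and 0 of either list were higher, where 1.92% and 2.39% of all genes were. The part of a mixture of cell types in the Sox levels was not tested, and in bulk RNA fewer cells of a type and less RNA per cell cannot be told apart.

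The genes whose pattern over the 3 states lay closest to that of *Sox2*, the member with the highest level, were *Cox7c*, *Gm10036* and *U2af1*, at Euclidean distances of 0.34, 0.404 and 0.434 in log2(RPKM + 1). Those closest to *Sox15*, the member with the widest range, were *Tdrd12*, *Dppa3* and *Tcfap2c*, at distances of 0.451, 0.644 and 0.72. *Tdrd12* had 50.9, 10.5 and 0.467 RPKM in WT ESCs, *Nanog*-/- ESCs and EpiSCs, and *Tcfap2c* had 32.8, 15.4 and 0.596 RPKM. With only 3 points per gene, this is a description of likeness in level.

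Promoter interactions of the members were read from the 3 combined lists. Each list names a pair of HindIII fragments, the read pairs that join them and a CHiCAGO score, which rises as a pair has more reads than its distance alone would give, and holds no score under 5. The WT ESC list held 100492 pairs of fragments, that of EpiSCs 87369 and the *Nanog*-/- list 74931, with 2177284, 1651286 and 1438555 read pairs, and the *Nanog*-/- list reached less far, with a median distance of 74.1 kb against 138.7 and 140.6 kb. An interaction absent from a list is one under the score limit at that depth, not one shown to be lost.

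The members had 35 listed interactions in WT ESCs, 66 in EpiSCs and 24 without NANOG, all within a chromosome and none with the bait of another Sox or a Hox gene. Their median distance was 244.3 kb, 448.8 kb and 68.3 kb, respectively, over members that differ in number from list to list, with *Sox15* giving 14 of the 35 and *Sox4* 27 of the 66. Bait by bait, the median was shorter in EpiSCs than in WT ESCs for *Sox2* (451.8 against 460.9 kb), *Sox3* (374.5 against 402.5 kb) and the *Sox4* bait at the gene start (650.9 against 765.9 kb), and longer for *Sox12*, *Sox15* and *Sox21*. Read numbers were small, with medians of 7, 7 and 10 read pairs per interaction. Baited partners made up 34.3% of member interactions in the WT ESC list, 9.09% in that of EpiSCs and 45.8% in the *Nanog*-/- list, against 23.1%, 18.4% and 22.0% of all pairs. *Sox15* gave 7 of the 12 baited partners in WT ESCs and 9 of the 11 in *Nanog*-/- ESCs, and without it the shares were 23.8%, 6.25% and 18.2%.

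**Figure D3:**
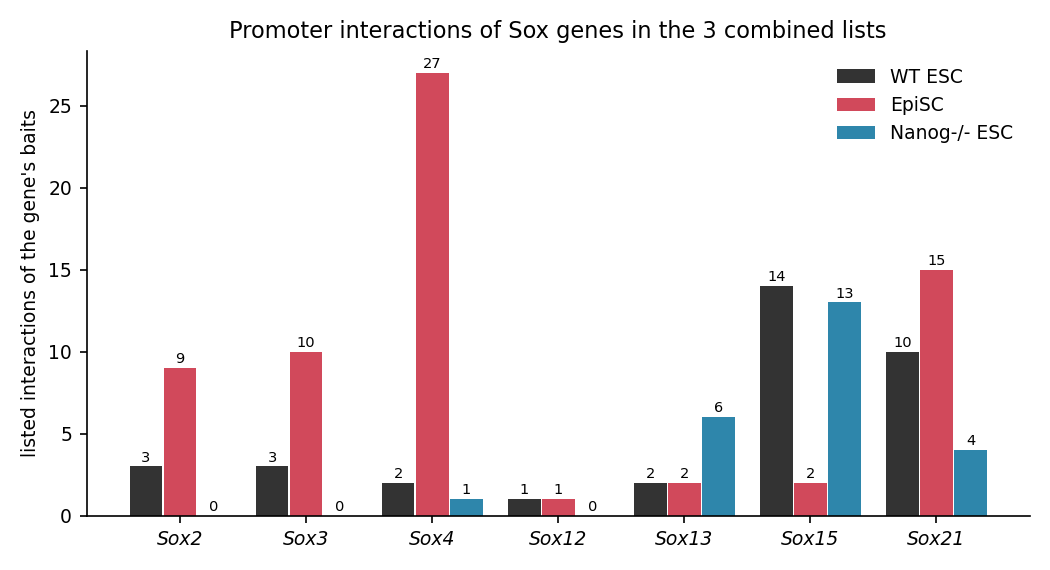
Number of listed interactions of each Sox gene's baits in WT ESCs (black), EpiSCs (red) and *Nanog*-/- ESCs (blue), with the number above each bar. *Sox4* had 27 in EpiSCs against 2 and 1, and *Sox15* had 2 in EpiSCs against 14 and 13.

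Of 8 member baits with an interaction in WT ESCs or EpiSCs, 4 had at least 2-fold more in EpiSCs after adding 1 to each number (*Sox2*, *Sox3* and both *Sox4* baits) and 1 had 0.5-fold or fewer (*Sox15*). *Sox4* is thus counted through both of its baits. Its second bait went only from 0 to 1 interaction, with 4 read pairs and a partner that its other bait also had in EpiSCs. Over all 18716 baits, 16.7% were at least 2-fold and 28.1% were 0.5-fold or less. At a score of 7 or more, 2 of 6 baits rose by this rule (*Sox2* and *Sox4*) and 2 fell (*Sox13*, from 1 to 0, and *Sox15*). The share of all baits was not computed at that score, so whether these counts are unusual cannot be told. In *Nanog*-/- ESCs, 4 of 7 baits were at 0.5-fold or less (*Sox2*, *Sox3*, *Sox12* and *Sox21*) and 1 was at least 2-fold (*Sox13*), where 35.4% and 8.13% of 17881 baits were.

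The *Sox2* bait (chr3:34647507-34650462) covers the start of the gene and is itself part of a super-enhancer (SE). Its strongest partner in WT ESCs was the fragment printed above, 451.3 kb on the 3′ side, with 6 read pairs (exact Poisson 95% interval 2.2 to 13.1) and a score of 8.45. In EpiSCs this fragment was again the strongest partner, with 11 read pairs (5.49 to 19.7) and a score of 17.79. The intervals overlap, and they cover counting error only. The *Sox2* bait thus kept 1 partner between these states, and 8 others were listed in EpiSCs alone.

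Around that fragment, 5 fragments of a stretch of 29.0 kb (chr3:35081975-35110999) interacted with *Sox2* in EpiSCs, with 33 read pairs in all, and 2 did in WT ESCs, with 11. A second stretch, 835.4 to 848.0 kb from the bait (chr3:35483853-35497290), was listed in EpiSCs alone, with 3 fragments, 17 read pairs and a top score of 12.09. All of these are intergenic by the GENCODE vM21 annotation. On the 5′ side, a fragment in an intron of the long non-coding RNA gene *Sox2ot* (chr3:34232017-34232581, 416.7 kb away) was listed in EpiSCs with 6 read pairs and a score of 7.84.

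A neighbouring bait gave a readout of the same region from a separate fragment of the same library. The *Mir1897* bait (chr3:34638138-34642935) lies 8.4 kb from the *Sox2* bait and had 5 interactions in EpiSCs and 0 in the other lists. Of these 5 partners, 3 were also partners of *Sox2* in EpiSCs, among them the printed fragment with 6 read pairs and a score of 7.87 and the *Sox2ot* fragment with 7 read pairs and a score of 8.97. Another, chr3:35108678-35110999, was a partner of *Sox2* in WT ESCs.

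In *Nanog*-/- ESCs the *Sox2* bait had 0 listed interactions, while its RPKM was 0.917 times that of WT ESCs. Within 1 Mb of the bait, 7 fragments including the bait itself belong to SEs of ESCs, the farthest at 110.1 kb on the 3′ side. None of the others was listed with any partner in any of the 3 lists, so these lists give no value for interactions between the *Sox2* promoter and them. The paper, however, names *Sox2* among the genes with a promoter-SE interaction in WT ESCs. It also names *Sox2* among those that interacted with SEs in both ESCs and EpiSCs.

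*Sox3* (bait chrX:60890416-60897160) also had more listed interactions in EpiSCs, 10 against 3 in WT ESCs and 0 in *Nanog*-/- ESCs. Its strongest partner in EpiSCs was the bait of *Mcf2*, a guanine nucleotide exchange factor gene, 714.9 kb away, with 7 read pairs (2.81 to 14.4) and a score of 9. *Mcf2* was a partner in WT ESCs too, with 5 read pairs and a score of 6.85. Of the 10 EpiSC partners, 9 were on the 3′ side of the gene.

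*Sox4* had the largest change. Its bait at the gene start (chr13:28953512-28954143, 632 bases) had 26 interactions in EpiSCs, more than 97.4% of all baits, against 2 in WT ESCs and 1 in *Nanog*-/- ESCs, and a second bait over the gene (chr13:28945202-28951214) had 1 in EpiSCs alone. Its 2 partners in WT ESCs were both kept in EpiSCs. The strongest in WT ESCs (chr13:29836271-29837767, 883.2 kb away) had 11 read pairs (5.49 to 19.7) and a score of 14.73 there, and 13 read pairs and a score of 15.7 in EpiSCs. The strongest in EpiSCs was the 203-base fragment printed above, 872.7 kb away, with 18 read pairs (10.7 to 28.4) and a score of 23.99, and it was not listed in the other states.

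Of the 27 *Sox4* interactions in EpiSCs, 21 were with introns of *Cdkal1*, a tRNA-modifying enzyme gene on the 5′ side of *Sox4*, at 538.6 to 899.4 kb and with 217 read pairs in all. They gathered in 2 stretches: 11 neighbouring fragments over 18.3 kb (chr13:29598976-29617267) with 130 read pairs, and 6 over 27.1 kb (chr13:29826416-29853551) with 60. In WT ESCs each stretch had 1 listed fragment, with 6 and 11 read pairs. Neighbouring fragments of a stretch are not independent observations. In *Nanog*-/- ESCs the only *Sox4* partner, at 170.0 kb on the 3′ side with 8 read pairs and a score of 5.69, lay next to a partner listed in EpiSCs, in an intron of the non-coding gene *2610307P16Rik*. *Sox4* RNA was 2.4-fold higher than in WT ESCs in the *Nanog*-/- line, in which none of the *Cdkal1* fragments was listed.

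*Sox12* had 1 interaction in WT ESCs, with the bait of *AA387200* at 326.1 kb (4 read pairs, score 5.51), 1 in EpiSCs, with the bait of *Tpx2*, a spindle assembly factor gene, at 445.2 kb (3 read pairs, score 5.57), and 0 in *Nanog*-/- ESCs. These read numbers and scores are near the limit of the lists.

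*Sox13* (bait chr1:133418817-133425492) had 2, 2 and 6 interactions in WT ESCs, EpiSCs and *Nanog*-/- ESCs. A fragment with exons of the spliceosome gene *Snrpe*, whose bait is named SNORA32.8, 184.0 kb away, was listed in all 3 states. It was the strongest partner in WT ESCs, with 14 read pairs and a score of 9.65, and in EpiSCs, with 7 and 6.53, and had 8 and 8.74 in *Nanog*-/- ESCs. The strongest in *Nanog*-/- ESCs was 1 of 4 fragments within 5.9 to 8.6 kb of the bait (chr1:133427641-133431532), with 52 read pairs (38.8 to 68.2) and a score of 9.09. These short interactions together carried 180 read pairs and were listed in that state alone.

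**Figure D4:**
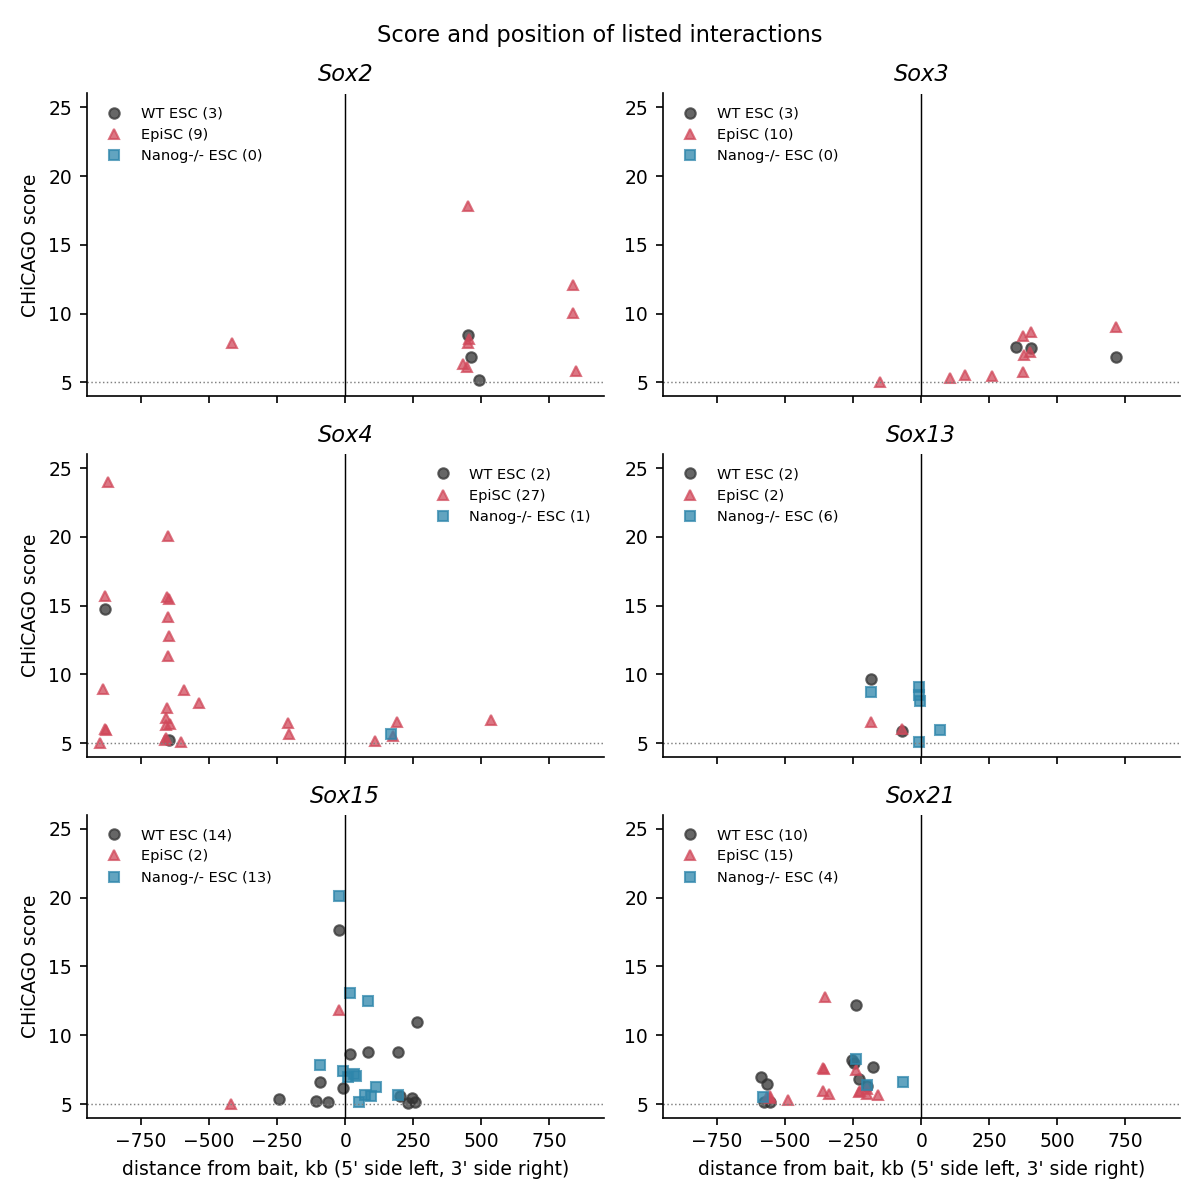
CHiCAGO score of each listed interaction (vertical axis) against the distance of the partner from the bait in kb (horizontal axis, 5′ side of the gene to the left), for 6 Sox genes. Black circles are WT ESCs, red triangles EpiSCs and blue squares *Nanog*-/- ESCs, with numbers of interactions in the keys, and the dotted line marks the lowest listed score of 5. *Sox2* partners lie 416.7 kb or more from the bait, *Sox4* partners in EpiSCs gather at 2 distances on the 5′ side, and those of *Sox15* surround the bait.

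*Sox15* (bait chr11:69652620-69657059) lies in a gene-dense stretch, and it had far fewer listed interactions in EpiSCs. They numbered 14 in WT ESCs, 13 in *Nanog*-/- ESCs and 2 in EpiSCs. The bait of *Fxr2*, a paralogue of the fragile X gene 21.7 kb away, was the strongest partner in all 3, with 78 read pairs (61.7 to 97.3) and a score of 17.68 in WT ESCs, 43 read pairs and 20.09 in *Nanog*-/- ESCs and 63 read pairs (48.4 to 80.6) and 11.8 in EpiSCs. *Fxr2* RNA was under 2-fold different between the states, at 122, 132 and 82.5 RPKM. The other EpiSC interaction was with the bait of *Gucy2e*, 418.4 kb away, with 5 read pairs and a score of 5.01.

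The *Sox15* bait shared 6 partners between WT and *Nanog*-/- ESCs, of 14 and 13. Next to *Fxr2* these included the bait snoU6-77.1 at the translation factor gene *Eif4a1*, with 33 read pairs and a score of 8.63 in WT ESCs and 24 and 13.08 in *Nanog*-/- ESCs, and a fragment in *Polr2a*, the gene of the largest RNA polymerase II subunit, with 15 and 8.78 against 13 and 12.47. In WT ESCs alone the next strongest was *Eif5a*, 263.7 kb away, with 12 read pairs and a score of 10.94. In *Nanog*-/- ESCs 1 partner, 48.9 kb away with 9 read pairs and a score of 5.16 (chr11:69701899-69705516), was an SE fragment. In the WT ESC and EpiSC lists 0 member interactions had an SE fragment as partner, although the *Sox2* bait is itself an SE fragment. The paper, however, reports *Sox15* as a newly found SE target in WT ESCs and not in EpiSCs. It also kept some interactions under a score of 5 by a replicate rule, and such scores are absent from these lists. *Sox15* RNA was 3.61-fold lower in *Nanog*-/- than in WT ESCs, with nearly the same number of interactions.

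The 2 nearest other baits did not show so few in EpiSCs. The *Mpdu1* bait, 8.9 kb from that of *Sox15*, had 9 interactions in WT ESCs and 9 in EpiSCs. Of its 9 EpiSC partners, 5 were partners of *Sox15* in at least 1 state, but only 1 was a partner of *Sox15* in EpiSCs. The *Cd68* bait, 11.8 kb away, had 6 and 4, and of its 4 EpiSC partners 2 were partners of *Sox15* in at least 1 state and 0 in EpiSCs.

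*Sox21* (bait chr14:118232175-118239549) had 10, 15 and 4 interactions in WT ESCs, EpiSCs and *Nanog*-/- ESCs, and every one was on its 5′ side. Its partners chr14:118474630-118477152, intergenic at 240.0 kb, and the baited fragment named uce in the lists, at 200.7 kb, were listed in all 3 states. The former was the strongest in WT ESCs, with 14 read pairs (7.65 to 23.5) and a score of 12.21, and in *Nanog*-/- ESCs, with 7 and 8.26, and had 7 and 7.49 in EpiSCs. In EpiSCs the strongest was in an intron of *Abcc4* (chr14:118587878-118589507, 352.8 kb away), with 9 read pairs (4.12 to 17.1) and a score of 12.77, and it was 1 of 4 fragments over 12.0 kb with 26 read pairs that were listed in EpiSCs alone.

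*Abcc4*, a drug and prostanoid exporter gene, had 48.7 RPKM in WT ESCs, 130.5 RPKM in *Nanog*-/- ESCs and 7.84 RPKM in EpiSCs. Introns of *Cldn10*, a tight junction gene 555.0 to 589.5 kb away, were contacted in all 3 states, by 4, 3 and 1 fragments in WT ESCs, EpiSCs and *Nanog*-/- ESCs. The *Gm9376* bait, 32.6 kb from the *Sox21* bait, had 12 interactions in EpiSCs, and 4 of its partners were those of *Sox21* in the same state.

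Of the 35 member interactions of WT ESCs, 12 were also listed in EpiSCs, or 34.3% (Wilson 95% interval 20.8 to 50.8%), against 39.6% of all pairs, and 9 in *Nanog*-/- ESCs, or 25.7% (14.2 to 42.1%), against 41.8%. Of the 66 EpiSC interactions, the same 12 were 18.2% (10.7 to 29.1%), against 45.5% of all EpiSC pairs, and 4 were in the *Nanog*-/- list, or 6.06% (2.38 to 14.6%), against 36.4%. Of the 24 *Nanog*-/- interactions, 37.5% were in the WT ESC list and 16.7% in that of EpiSCs, against 56.0% and 42.4%. The EpiSC shares lie under those of all pairs, and 27 of the 66 interactions belonged to *Sox4*. These intervals treat each pair as an independent draw, which neighbouring fragments of a stretch are not. They are therefore likely too narrow and are no test against the share of all pairs. By gene, 4 interactions were in all 3 lists, 1 each of *Sox13* and *Sox15* and 2 of *Sox21*.

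RNA and interactions changed in the same direction for some members and in opposite directions for others. *Sox3* and *Sox4* were 2-fold higher in EpiSCs and had at least 2-fold more interactions, and *Sox15* was lower and had fewer, whereas *Sox2* was lower and went from 3 to 9. Among 1571 genes 2-fold higher in EpiSCs, 22.7% had at least 2-fold and 20.4% had 0.5-fold or fewer interactions (plus 1, summed over the baits of a gene) in EpiSCs. Among 1458 genes 2-fold lower, 13.9% had at least 2-fold and 25.8% had 0.5-fold or fewer. The direction that *Sox2* took was thus also that of 13.9% of the genes with lower RNA.

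**Figure D5:**
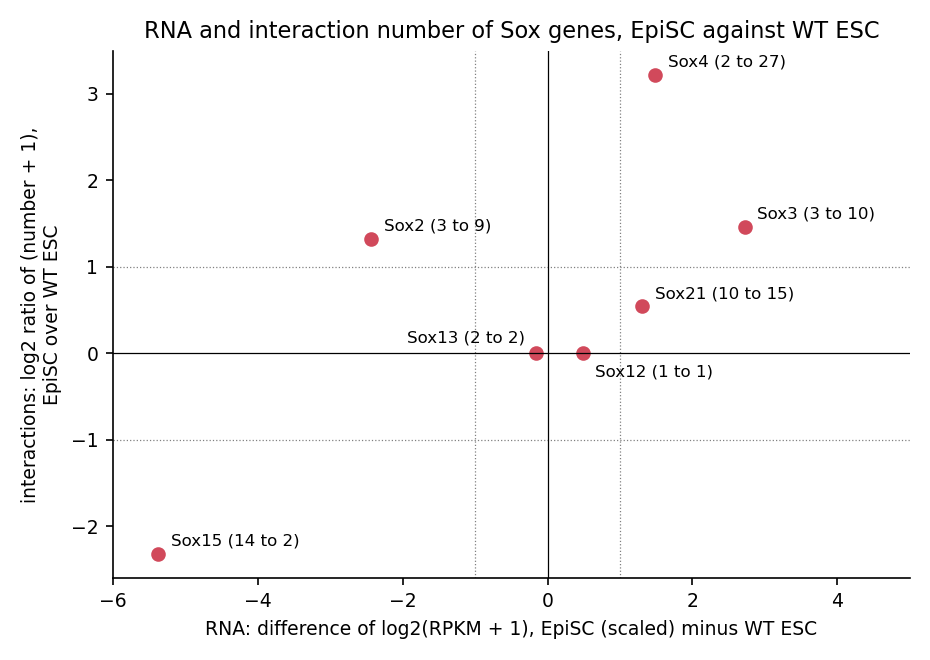
Log2 ratio of listed interactions (plus 1) between EpiSCs and WT ESCs against the difference of log2(RPKM + 1), 1 point per Sox gene, with the interaction numbers in WT ESCs and EpiSCs in brackets. Dotted lines mark 2-fold. *Sox15* lies at the lower left (14 to 2), *Sox3* and *Sox4* at the upper right, and *Sox2* at the upper left (3 to 9).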

How the data were processed

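The PCHi-C lists were made by the authors with HiCUP and CHiCAGO on HindIII fragments, with the biological replicates of each cell type combined. The deposited lists give read counts (no further scaling stated) and CHiCAGO scores. The deposited RNA-seq table gives the median RPKM of each group, normalized by the authors to gene length and library size, with fold changes and p-values of the authors that were not used. Submitters' processing notes name Bowtie 1.1.0, TopHat, Trim Galore and DESeq2. EpiSC ChIP-seq samples were not analysed here.

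Pairs of baits appear from either end and were counted once, at the higher score. All 96056 listed fragments were HindIII fragments of GRCm38, and bait numbers of the RNA table follow that digest. Distances run between fragment midpoints, and partners at most 10 kb apart were joined into stretches. SE fragments came from the supplementary SE list of the study, as positions only. Values were computed with Python 3.11.15, pandas 2.3.3 and scipy 1.17.1, and scripts were tested on simulated data. Named interactions were the strongest of each gene and state, those in all 3 lists, and those with Sox or Hox baits or another chromosome, and 1 of them is not reported here. Further interactions, stretches and neighbouring baits, and genes at partners, were chosen after their values were seen. Genes and lists were chosen with earlier results of these data known.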

Additional observations from a re-analysis of the deposited data

How the results depend on the processing

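Of 48 log2 differences of single members under other scalings and pseudocounts, 45 kept their direction and their side of the 2-fold rule. Without the scaling of EpiSC values, *Sox11* (1.85) and *Sox12* (1.39) passed the rule and *Sox13* turned from −0.15 to 0.73. The share of all genes past 2-fold in EpiSCs moved from 28.4% to 50.7% without scaling, to 36.9% and 32.9% with pseudocounts of 0.1 and 0.5 RPKM, and to 20.1% with no filter. In *Nanog*-/- ESCs it moved from 4.3% to 9.51%, 6.26% and 3.04% under the last 3 of these. At a CHiCAGO score of 7 or more, member interactions numbered 14, 27 and 12 in the WT ESC, EpiSC and *Nanog*-/- lists, fewer by construction. Their median distance was then 593.2 kb in EpiSCs and 26.3 kb in *Nanog*-/- ESCs, and the share of WT ESC interactions also in the *Nanog*-/- list was 42.9% (6 of 14). The share of all pairs was not computed at that score. At that score, which was tried after the data were seen, 2 baits rose in EpiSCs and 2 fell, with no share over all baits to set beside them. The causes were not tested. No paired analysis was possible because each state has 1 combined list or median, and for the same reason no replicate could be left out. Low read numbers limit single interactions, since 30 of 35, 59 of 66 and 15 of 24 had fewer than 15 read pairs in WT ESCs, EpiSCs and *Nanog*-/- ESCs.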
